A study of Homo sapiens with 8 samples.

Results

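Mitochondrial fatty acid oxidation was described here through 9 genes of the pathway, CPT1A, CPT2, ACADVL, ACADM, ACADS, HADHA, HADHB, ACAA2 and ETFB. They were taken by symbol from a table of 58870 gene rows, in which each had 1 row. All 9 passed the filter on low counts, as did 13860 genes in all. The proteins of all 9 act in mitochondria, so the peroxisomal branch was followed through a separate list of genes. The libraries came from Panc 10.05 cells, a human line established from a pancreatic ductal adenocarcinoma. One group was 4 control libraries of this line, and the other was 4 libraries of the same line labelled as ELAPOR1 overexpression. ELAPOR1 is a membrane protein of endosomes and lysosomes. How the overexpression was achieved, what the control cells carried, and whether cells were 1 clone or a pool were not given in the sources used here. Nor was it given whether replicates were separate cultures, so p-values measure only the spread between these libraries. The title of the series links ELAPOR1 to the classical/progenitor subtype and to metabolic reprogramming.

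Long-chain fatty acids enter mitochondria as carnitine esters. CPT1A makes the ester at the outer membrane and CPT2 turns it back into acyl-CoA inside. The acyl-CoA is then shortened in repeated rounds of dehydrogenation, hydration, a further dehydrogenation and thiolysis, each round giving acetyl-CoA. The acyl-CoA dehydrogenases pass their electrons to electron transfer flavoprotein (subunits ETFA and ETFB) and from there, through ETFDH, to ubiquinone of the respiratory chain. Peroxisomes shorten very long and branched chains with enzymes of their own. PPARA and ESRRA are nuclear receptors known to drive transcription of these genes in liver, heart and muscle.

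Library totals ranged from 13765509 to 18128757 counts. ELAPOR1, which the table lists under its older symbol KIAA1324, had 1 to 4 counts in each control library. It had 5910 to 7368 in each ELAPOR1 library, so all 8 libraries matched their labels. The 6 ductal epithelial markers (KRT7, KRT8, KRT18, KRT19, EPCAM and CDH1) summed to 11869 to 13072 CPM (counts per 1000000 counts of the library) in control and 11261 to 11584 CPM in ELAPOR1 libraries. They did not move together. By the rule given below, KRT7, KRT19 and CDH1 were called higher (log2 fold changes 0.31, 0.25 and 0.11). KRT8 and KRT18, the most abundant, were called lower (-0.16 and -0.36), and EPCAM was not called (-0.03). Of 30 markers of other cell types, 26 stayed at or below 10 counts in each library, the exceptions being COL1A1, VWF, CD68 and SERPINA1, and 15 were at 0 in all, among them the acinar markers and insulin. Summed endothelial markers were lower in ELAPOR1 than in control libraries (control 1.5997 to 1.93 against 0.581 to 0.870 CPM, mostly VWF). So were those of immune cells (82.0 to 87.1 against 73.3 to 79.9 CPM, mostly CD68). Those of hepatocytes were higher (7.61 to 9.43 against 14.7 to 17.5 CPM, mostly SERPINA1). Transcripts of the mitochondrial genome took 4.29% to 4.41% of counts in control and 4.70% to 4.93% in ELAPOR1 libraries, without overlap. The part of these differences in the results below was not tested.

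Of the 9 genes, 7 differed between ELAPOR1 and control libraries. The acyl-CoA dehydrogenases ACADVL, ACADM and ACADS and the flavoprotein subunit ETFB fell, while HADHA and HADHB, the subunits of the trifunctional protein, and the thiolase ACAA2 rose. CPT1A and CPT2 were not called. Calls were made with edgeR's quasi-likelihood test where the Benjamini-Hochberg adjusted p, over all 13860 genes, was below 0.05. By this rule 44.7% of all tested genes were called, 22.6% higher and 22.1% lower, so many genes outside the pathway were called too. Levels in the 2 groups were fully separate for 6 of the 9 genes, against 39.2% of all tested genes. The median log2 fold change of the 9 genes was -0.090, beside 0.00087 for all tested genes. Changes were small, since 5 of the 7 called genes changed by less than 1.5-fold, the exceptions being ACADS and ACAA2. Levels are given as CPM scaled with TMM factors. In a bulk sample, fewer cells that express a gene and less RNA per cell cannot be told apart.

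**Figure D1:**
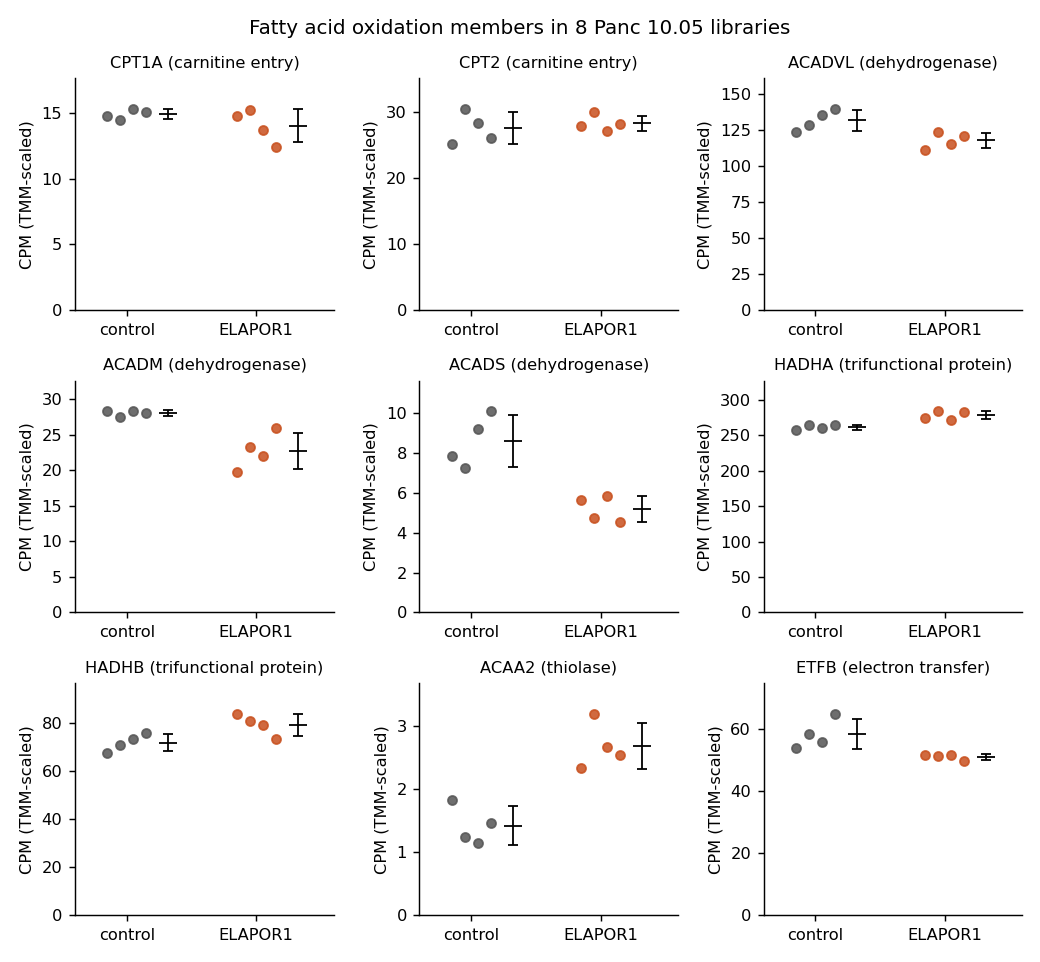
CPM of each of the 9 genes (vertical axes, from 0) in the 4 control (grey) and 4 ELAPOR1 (orange) libraries, with the mean and SD of each group beside the points. ACADS, ACADM, ACADVL and ETFB were lower and HADHA and ACAA2 higher in ELAPOR1 with no overlap, whereas HADHB, CPT1A and CPT2 overlapped.

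The carnitine step showed no called difference. CPT1A, the regulated entry enzyme that malonyl-CoA inhibits (ENSG00000110090.13, chromosome 11, 68754620 to 68844410, minus strand), was at 14.8, 14.5, 15.3 and 15.1 CPM in control libraries and 14.8, 15.2, 13.75 and 12.4 CPM in ELAPOR1 libraries. Its groups overlapped, and ELAPOR1 replicate 4 was the lowest library. The log2 fold change was -0.09 (95% interval -0.26 to 0.08, edgeR adjusted p = 0.416). CPT2, the inner membrane partner (ENSG00000157184.7, chromosome 1, 53196429 to 53214197, plus strand), was at 25.2, 30.4, 28.3 and 26.0 CPM in control and 27.8, 29.9, 27.1 and 28.1 CPM in ELAPOR1 libraries. The ELAPOR1 values of CPT2 lay inside the control range. Its log2 fold change was 0.04 (95% interval -0.10 to 0.17, edgeR adjusted p = 0.676), and without control replicate 1 it was -0.0086. These intervals leave room for a change of either sign, at most 0.26 in size on the log2 scale. The muscle and brain isoforms CPT1B and CPT1C were also measured at low levels, at 4.04 ± 0.745 and 1.72 ± 0.245 CPM in control libraries (SD, n = 4 each), and were not called.

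Around this step, the list of fatty acid activation and carnitine entry held 16 genes, of which 15 were tested and 4 called, 2 higher and 2 lower, a share below that of all genes. ACSL5, a long-chain acyl-CoA synthetase, was between 81.1 and 86.8 CPM in control and between 94.1 and 97.5 CPM in ELAPOR1 libraries, a rise of 0.20 on the log2 scale (edgeR adjusted p = 8.7e-05). CRAT, which exchanges short acyl groups between CoA and carnitine, fell from 33.1 ± 2.51 to 27.1 ± 0.745 CPM (SD, n = 4 each, log2 fold change -0.29, edgeR adjusted p = 4.0e-04). ACSL4, a synthetase that prefers arachidonate, fell by 0.10 (adjusted p = 0.0132), a call that was lost with total count scaling (adjusted p = 0.0520). The fatty acid transporter SLC27A4 rose by 0.15 (adjusted p = 0.0176), and its call was lost without ELAPOR1 replicate 2 (0.0708) or replicate 3 (0.0640). SLC25A20, the carrier that brings acylcarnitine across the inner membrane, was at 1.55 ± 0.486 CPM in control and 2.20 ± 0.325 CPM in ELAPOR1 libraries and was not called (log2 fold change 0.51, 95% interval -0.02 to 1.04, edgeR adjusted p = 0.110).

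The 3 acyl-CoA dehydrogenases fell, and the fall was larger the shorter the chains the enzyme prefers. This order was noticed after the values were seen, rests on 3 genes that also differ in level, and was not tested. ACADVL, for very long chains (ENSG00000072778.20, chromosome 17, 7217125 to 7225273, plus strand), was at 123.6, 129, 136 and 140 CPM in control and 111, 123.5, 116 and 121 CPM in ELAPOR1 libraries. Control replicate 1 and ELAPOR1 replicate 2 almost met, so the groups were separate by a narrow margin. The log2 fold change of ACADVL was -0.16 with an SE of 0.0406 (edgeR adjusted p = 1.3e-03).

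ACADM, for medium chains (ENSG00000117054.13, chromosome 1, 75724347 to 75787575, plus strand), was at 28.3, 27.6, 28.3 and 28.04 CPM in control and 19.8, 23.3, 22.0 and 26.0 CPM in ELAPOR1 libraries. The control libraries were close together and all ELAPOR1 libraries lay below them, with replicate 4 the nearest. Its log2 fold change was -0.30 with an SE of 0.0715 (edgeR adjusted p = 8.0e-04). The end of ACADM shares 157 exonic bases on the same strand with RABGGTB, a subunit of an enzyme that prenylates RAB proteins. RABGGTB fell more, from 94.0 ± 2.45 to 69.1 ± 3.10 CPM (SD, n = 4 each, log2 fold change -0.44, edgeR adjusted p = 1.4e-10), and how far shared reads enter the value of ACADM was not tested.

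ACADS, for short chains (ENSG00000122971.9, chromosome 12, 120725735 to 120740008, plus strand), was at 7.87, 7.26, 9.23 and 10.1 CPM in control and 5.65, 4.72, 5.83 and 4.56 CPM in ELAPOR1 libraries. Every ELAPOR1 library was below every control library. The log2 fold change of -0.73 (SE 0.132, 95% interval -1.002 to -0.464, edgeR adjusted p = 2.5e-05) was the largest fall among the 9 genes. It rests on 123 to 166 counts in control and 71 to 92 counts in ELAPOR1 libraries. No exon of another annotated gene overlaps it.

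The other acyl-CoA dehydrogenases of the list did not all follow. ACAD10 fell from 16.8 ± 1.97 to 12.98 ± 2.01 CPM (SD, n = 4 each, log2 fold change -0.37, edgeR adjusted p = 3.3e-03). ACADSB, which acts on branched short chains from isoleucine, rose by 0.22 (adjusted p = 0.0249), but that call was lost in 7 of the alternatives tried besides the stricter threshold, with adjusted p-values up to 0.0755. ACAD8, ACAD9 and ACAD11 were not called, with log2 fold changes of -0.13, 0.06 and -0.17. ACADL, the long-chain enzyme, reached at most 6 counts in a library and was not tested.

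Both subunits of the trifunctional protein, which carries out the last steps of each round on long chains, rose slightly. HADHA, the hydratase and dehydrogenase subunit (ENSG00000084754.12, chromosome 2, 26190635 to 26244726, minus strand), was at 257, 265, 260 and 264 CPM in control and 275, 284, 272 and 283 CPM in ELAPOR1 libraries. It was the most abundant of the 9 genes and its groups did not overlap. HADHA rose by 0.09 ± 0.0297 (log2 fold change ± SE, edgeR adjusted p = 0.0112). HADHB, the thiolase subunit (ENSG00000138029.14, chromosome 2, 26243170 to 26290468, plus strand), was at 67.5, 70.6, 73.4 and 75.7 CPM in control and 83.8, 80.8, 79.0 and 73.1 CPM in ELAPOR1 libraries. ELAPOR1 replicate 4 fell within the control range. The log2 fold change of HADHB was 0.14 with an SE of 0.0464 (edgeR adjusted p = 0.0127), and its call was lost without control replicate 1 (adjusted p = 0.0503) or without ELAPOR1 replicate 1 (0.0769).

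HADHA and HADHB lie head to head, with 306 bases between their RefSeq start sites. Their log2 ratio of counts needs no scaling between libraries. It had a mean of 1.87 ± 0.0627 (SD, n = 4) in control libraries and of 1.82 ± 0.101 (SD, n = 4) in ELAPOR1 libraries. The difference, -0.05, lay within the replicate spread (two-sided exact permutation p = 0.486, 0.486 after adjustment over the 2 ratios tested, where 4 against 4 libraries cannot go below 0.0286). A ratio that misses the threshold does not show that both genes changed equally. HADH, ECHS1 and HSD17B10, which carry out matching steps on shorter chains or related substrates, were not called and had log2 fold changes of -0.08, 0.03 and 0.05.

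The largest rise among the 9 genes was that of ACAA2, the mitochondrial thiolase that releases acetyl-CoA from medium-length chains. ACAA2 (ENSG00000167315.18, chromosome 18, 49782167 to 49813960, minus strand) was at 1.83, 1.24, 1.14 and 1.46 CPM in control and 2.33, 3.19, 2.66 and 2.54 CPM in ELAPOR1 libraries. All ELAPOR1 libraries were above all control libraries, at a low level of 19 to 32.8 expected counts in control and 37 to 48 in ELAPOR1 libraries. The log2 fold change was 0.91 with a wide 95% interval of 0.42 to 1.40 (SE 0.239, edgeR adjusted p = 2.1e-03). It shares 385 exonic bases with AC090227.1, which had at most 2.55 expected counts in any library. ACAT1, the thiolase that also acts on acetoacetyl-CoA, fell by 0.09 (edgeR adjusted p = 0.0462), a call lost in 12 alternatives besides the stricter threshold.

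Electron transfer genes fell together. ETFB, the beta subunit of the flavoprotein (ENSG00000105379.9, chromosome 19, 51345169 to 51366418, minus strand), was at 53.9, 58.4, 55.8 and 65.0 CPM in control and 51.6, 51.4, 51.5 and 49.7 CPM in ELAPOR1 libraries. The ELAPOR1 libraries were close together and all lay below the lowest control library. ETFB changed by -0.19 ± 0.0524 (log2 fold change ± SE, edgeR adjusted p = 3.3e-03). ETFA, the alpha subunit, was at 121, 125, 133 and 131 CPM in control and 109, 102, 110 and 103 CPM in ELAPOR1 libraries, a log2 fold change of -0.27 (SE 0.0393, adjusted p = 7.3e-07). ETFDH, the oxidoreductase that accepts electrons from the flavoprotein, was at 25.3, 26.8, 22.4 and 24.3 CPM in control and 17.9, 17.03, 20.01 and 21.1 CPM in ELAPOR1 libraries (log2 fold change -0.38, SE 0.0768, adjusted p = 1.3e-04). For each of the 3 genes every ELAPOR1 library was below every control library. The log2 ratio of ETFB to ETFA counts had a mean of -1.13 ± 0.102 (SD, n = 4) in control and of -1.05 ± 0.0495 (SD, n = 4) in ELAPOR1 libraries. The difference of 0.08 did not pass the test (exact permutation p = 0.229, two-sided, 0.457 after adjustment).

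In the whole list of the mitochondrial spiral and electron transfer, 21 of 22 genes were tested and 15 called, 4 higher and 11 lower, and the median over the tested genes was -0.16 on the log2 scale. The share called was 71.4%, beside 44.7% of all tested genes (22.1% lower). Of its 14 tested genes outside the 9, 8 were called, 1 higher and 7 lower. Auxiliary enzymes for unsaturated chains were among the falls. DECR1, the dienoyl-CoA reductase, was at 61.6, 67.2, 71.1 and 72.5 CPM in control and 51.9, 56.2, 60.1 and 53.6 CPM in ELAPOR1 libraries (log2 fold change -0.30, edgeR adjusted p = 2.1e-05). The enoyl-CoA isomerases ECI1 and ECI2 fell by 0.26 and 0.16 on the log2 scale (adjusted p = 3.3e-03 and 3.9e-03).

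**Figure D2:**
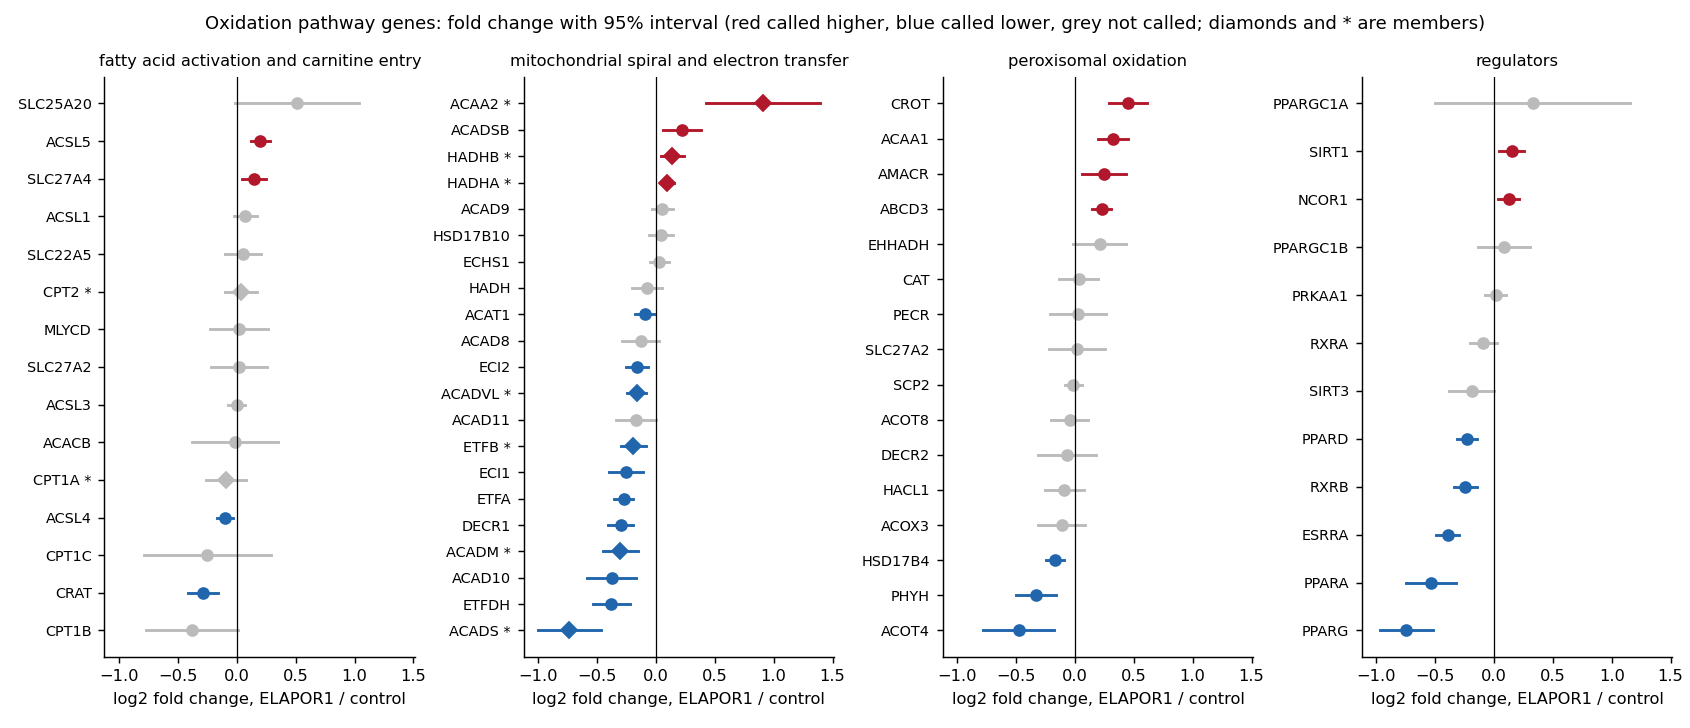
Log2 fold change of ELAPOR1 over control (horizontal axes) with its 95% interval for tested genes of 4 lists (some genes of the peroxisomal list are not shown), ordered from higher to lower, with the 9 genes as diamonds. Red marks genes called higher, blue genes called lower and grey genes not called, so that the mitochondrial panel shows 11 lower and 4 higher.

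Peroxisomal oxidation genes were mixed. Of 20 listed genes 18 were tested and 8 called, 4 higher and 4 lower, a share of 44.4% beside 44.7% of all genes, with a median log2 fold change of -0.017. CROT, which makes carnitine esters of the shortened chains that leave peroxisomes, was between 13.6 and 17.5 CPM in control and between 20.4 and 21.6 CPM in ELAPOR1 libraries (log2 fold change 0.45, edgeR adjusted p = 2.0e-05). ACAA1, the peroxisomal thiolase, rose from 25.6 ± 1.27 to 32.1 ± 0.902 CPM (SD, n = 4 each, log2 fold change 0.33, adjusted p = 5.3e-05). ABCD3, a transporter of branched and dicarboxylic acyl-CoA, rose from 81.2 ± 3.62 to 95.1 ± 1.45 CPM (log2 fold change 0.23, adjusted p = 2.3e-05). AMACR, a racemase for branched chains, was called higher at 0.25 (adjusted p = 0.0248), a call lost in 7 alternatives besides the stricter threshold.

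Among the peroxisomal falls were HSD17B4 and PHYH. HSD17B4, the D-bifunctional enzyme, was the most abundant gene of the list in control libraries by CPM and fell from 124 ± 2.24 to 110 ± 4.995 CPM (SD, n = 4 each, log2 fold change -0.17, edgeR adjusted p = 3.6e-04). PHYH, which starts the breakdown of phytanic acid, fell by 0.33 (adjusted p = 1.4e-03). ACOT4, an acyl-CoA thioesterase, fell by 0.48 (adjusted p = 8.9e-03), and its call was lost without control replicate 3 (0.0516).

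Several nuclear receptors linked to these genes were lower in ELAPOR1 libraries. Of 14 listed regulators 12 were tested and 7 called, 5 lower and 2 higher, and the median over the tested genes was -0.14 on the log2 scale. The share called was 58.3%, beside 44.7% of all tested genes (22.1% lower). ESRRA was at 76.1, 82.8, 82.0 and 79.5 CPM in control and 65.9, 58.9, 62.3 and 57.0 CPM in ELAPOR1 libraries (log2 fold change -0.39, edgeR adjusted p = 1.8e-08). PPARG, best known for lipid storage in fat cells, was between 10.0 and 11.9 CPM in control and between 5.62 and 7.72 CPM in ELAPOR1 libraries (log2 fold change -0.74, adjusted p = 1.1e-06). PPARA was between 11.1 and 13.4 CPM in control and between 7.56 and 9.70 CPM in ELAPOR1 libraries (log2 fold change -0.53, adjusted p = 7.0e-05). PPARD and RXRB, a dimer partner of PPAR receptors, fell by 0.23 and 0.24 (adjusted p = 2.0e-05 and 9.1e-05). For these 5 genes the groups did not overlap. RXRA, of the same list, was not called (log2 fold change -0.09, adjusted p = 0.193).

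Of the other regulators, 2 were called. NCOR1, a corepressor, and the deacetylase SIRT1 were called higher at 0.13 and 0.15 (edgeR adjusted p = 0.0185 and 0.0206), and both calls were lost once trends against GC content and transcript length were removed (0.0968 and 0.0650). Single libraries also ended them. The call of NCOR1 was lost without control replicate 2 (adjusted p = 0.0591) or 3 (0.0951) or ELAPOR1 replicate 2 (0.0566) or 3 (0.0541), and that of SIRT1 without control replicate 3 (0.0888) or 4 (0.0739) or ELAPOR1 replicate 3 (0.0619). The coactivator PPARGC1A was barely measured, at 0.548 ± 0.214 CPM in control libraries, and was not called. Of 13 genes known to be induced by PPAR receptors, 6 were tested and 2 were called, both lower, while 4 were not called. The share called was 33.3%, below the 44.7% of all tested genes. PDK4, the kinase that switches off pyruvate dehydrogenase, fell by 0.62 from 3.13 ± 0.241 CPM (SD, n = 4, edgeR adjusted p = 0.0144), and its call was lost without ELAPOR1 replicate 3 (0.0563). FABP1 and CYP4A11 had no count in any library.

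Since nuclear receptors were among the falls, promoters of the 9 genes were searched for their sites. All 9 matched RefSeq start windows of GRCh38.p14, 11 windows of 300 bases from 250 before to 50 after the start, with ACADVL and ETFB having more than 1. On both strands, none of the 11 held the PPAR-RXR site DR1 (AGGTCA repeated after 1 spacer base), the ESRRA site TCAAGGTCA or the half-site AGGTCA, which both longer sites contain. Of 35116 such windows in the genome, these were present in 0.0228%, 0.353% and 13.8%. The absence says only that these letters are not in these windows. The GC box GGGCGG, a site of SP1-type factors, was present in 8 of the 11 windows, from 7 of the 9 genes, and in 45.0% of all windows. These windows are not all separate, since those of HADHA and HADHB overlap. The HADHA match, at -248 from its start site, is the same site as the HADHB match at -64. The CCAAT box was present in 1 window, that of ETFB, and in 34.6% of all. The NRF1 site and the E-box CACGTG were in none of the 11 and in 1.24% and 7.26% of all windows. The stretches before the start that lie outside annotated exons are shown for ACADS, which fell most, and for ETFB, with capitals marking CCAAT read on the opposite strand, both 5′ to 3′ along the gene's strand.
ACADS, plus strand, chr12:120725576-120725734: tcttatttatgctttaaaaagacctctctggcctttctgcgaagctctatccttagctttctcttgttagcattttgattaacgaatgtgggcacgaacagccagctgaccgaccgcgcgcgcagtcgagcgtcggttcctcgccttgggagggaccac
ETFB, minus strand, chr19:51366419-51366638: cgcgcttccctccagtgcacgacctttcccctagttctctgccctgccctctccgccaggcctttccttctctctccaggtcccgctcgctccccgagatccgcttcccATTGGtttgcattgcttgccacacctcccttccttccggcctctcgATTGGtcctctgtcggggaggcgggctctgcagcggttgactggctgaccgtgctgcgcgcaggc
The ACADS stretch holds none of these motifs, since both GC boxes of its window lie nearer the start site, outside the stretch shown. The ETFB stretch holds 2 matches, which begin 141 and 95 bases before the start site.

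Compared per length, the 9 genes spanned a wide range. Dividing CPM by kilobases of merged exons, HADHA stood at 59.6 ± 0.788, ACADVL at 27.1 ± 1.49, HADHB at 16.8 ± 0.827, ETFB at 8.93 ± 0.743 and ACADM at 5.87 ± 0.0771 in control libraries (CPM per kilobase, SD, n = 4 each). ACADS followed at 3.26 ± 0.489, CPT2 at 2.63 ± 0.228, CPT1A at 2.27 ± 0.0588 and ACAA2 at 0.280 ± 0.0604. Neighbours in this order did not overlap except ACADS and CPT2 (exact permutation p = 0.0571, two-sided, adjusted 0.0610 over 16 neighbour pairs). For every such pair, in either group, the test ignored that both genes were measured in the same 4 libraries. The order was also set by the values tested, so these p-values do not establish it. In ELAPOR1 libraries ACADS dropped to 1.96 ± 0.243, below CPT2 and CPT1A, and overlapped CPT1A (exact permutation p = 0.257, adjusted 0.257), while ACAA2 stayed last at 0.529 ± 0.0724. The values depend on the length used, since all 18 moved by more than their SD with the longest protein-coding transcript. With that length CPT2 ranked above ACADS in control libraries and above ACADM in ELAPOR1 libraries, while the order of HADHA, ACADVL, HADHB and ETFB and the last place of ACAA2 were the same.

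**Figure D3:**
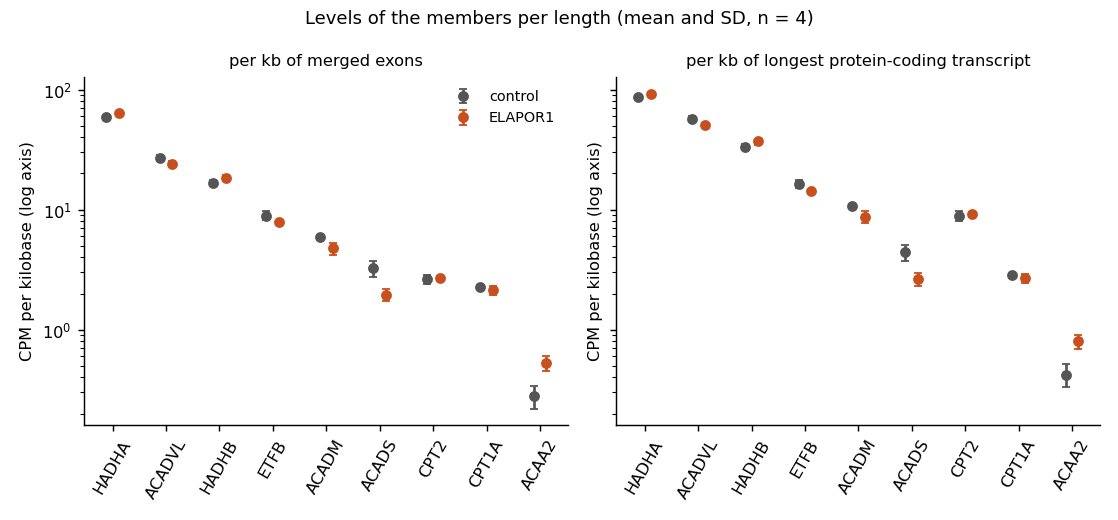
CPM per kilobase (log axis) of the 9 genes, as mean and SD of 4 control (grey) and 4 ELAPOR1 (orange) libraries, with merged exons (left) or the longest protein-coding transcript (right) as length. HADHA is highest and ACAA2 lowest in both panels, and CPT2 changes place with the length used.

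The direction of the 7 called genes did not depend on the settings tried. Over 20 alternatives, the log2 fold change of ACADS ranged from -0.81 to -0.64, that of ACADM from -0.37 to -0.24, that of ACADVL from -0.20 to -0.13 and that of ETFB from -0.23 to -0.13. Those of HADHA, HADHB and ACAA2 ranged from 0.07 to 0.11, from 0.11 to 0.18 and from 0.82 to 1.05.

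**Figure D4:**
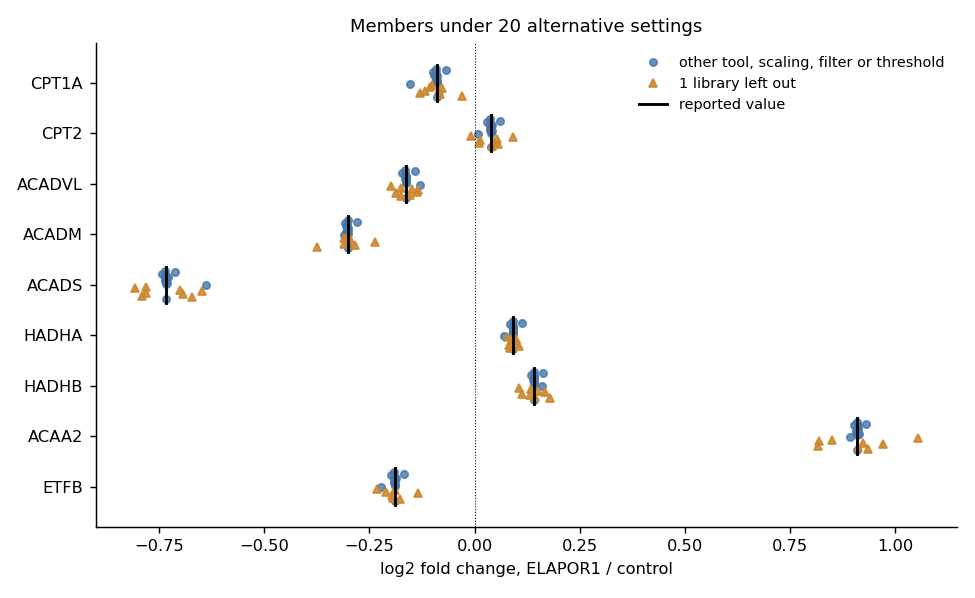
Log2 fold change of ELAPOR1 over control (horizontal axis) for each of the 9 genes, with the reported value as a black bar and the 20 alternatives as points, blue circles for another tool, scaling, filter or threshold and orange triangles for 1 library left out. Only CPT2 has a value on the other side of 0, at -0.0086.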

How the data were processed

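RNA sequencing of 8 libraries, 4 control and 4 ELAPOR1, was analysed. The authors deposited 1 table of expected counts per gene, unscaled, with a column per library. Per the submitters' processing notes, cutadapt, STAR, RSEM and DESeq2 were used with build hg38. Versions, annotation release and use of strand were not given in the sources used here. Of the nonzero values 15.0% were not whole, as RSEM divides reads shared between genes, so reads of overlapping genes may be assigned to either. Control libraries held 16558600 to 18128757 counts and ELAPOR1 libraries 13765509 to 17258166.

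Counts were rounded, filtered with filterByExpr, scaled with TMM and tested by quasi-likelihood (robust glmQLFit and glmQLFTest of edgeR 4.0.16, two-sided, no covariate, under R 4.3.3). The SE is the log2 fold change divided by the square root of F, and 95% intervals use the test's degrees of freedom. Coordinates and lengths are from GENCODE 29 (GRCh38), where 58597 identifiers matched without version, and promoters from RefSeq. DESeq2 1.42.0, limma-voom (limma 3.58.1), other scalings, filters and thresholds, rounding, the replicate block, each library left out and removal of GC and length trends (splines with 5 degrees of freedom) were tried. The procedure was also run on simulated data, with far fewer changed genes than were called here and the same dispersion for every gene. That setting is simpler than these data, so it does not show how reliable the calls are here. Plots used matplotlib 3.10.9.

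The 9 genes and the lists were chosen with earlier results of these data known. Names beyond the 9 followed a rule (in each list, the 3 called genes with the smallest adjusted p and at least 1 CPM, and likeness and neighbours as described under the other observations). Other named genes were chosen after their values were seen. Some genes counted in the lists are not reported here by name.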

Additional observations from a re-analysis of the deposited data

Results flagged for a closer look

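Single libraries that stand apart were looked for in 24 groups of 4 libraries (the CPM of the 9 genes, the 2 ratios and the library totals) with Dixon's test at its 95% critical value, and 1 was found where chance gives about 1.2. It was ELAPOR1 replicate 4 for ETFB, at 49.7 CPM, below the remaining ELAPOR1 libraries at 51.4 to 51.6 CPM. Without it, ETFB was still called lower (log2 fold change -0.18, edgeR adjusted p = 0.0165).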

How the results depend on the processing

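Of the 9 genes, ACADVL, ACADM, ACADS, ACAA2 and ETFB kept their direction and their call in all 20 alternatives. HADHA lost its call only at an adjusted p under 0.01 and HADHB there and when control replicate 1 or ELAPOR1 replicate 1 was left out. CPT2 ranged from -0.0086 (without control replicate 1, a change of sign) to 0.091 when each library was left out. At the threshold of 0.01, 5 of the 9 genes were called, 1 higher and 4 lower. Of all 13860 tested genes, 4682 were called at that threshold, 2392 higher and 2290 lower. That threshold also left 2 called genes of activation and carnitine entry and 1 PPAR-induced gene. Leaving out each library gave 6 to 7 called of the 9 genes, 3 to 5 for activation and carnitine entry, 12 to 15 for the mitochondrial list, 6 to 8 for peroxisomal oxidation, 8 to 10 for peroxisome biogenesis, 5 to 8 for regulators, 1 to 2 for PPAR-induced genes and 5557 to 6316 for all genes. The replicate numbers did not pair the libraries, since same-numbered deviations correlated at -0.038 to 0.020. With the replicate number as a block, 5926 genes were called in all and 7 of the 9. The HADHA to HADHB ratio was -0.049 (exact sign-flip p = 0.625) and the ETFB to ETFA ratio 0.083 (0.25) with the replicate block, where 4 pairs cannot go below 0.125. Over all 54 named genes and alternatives, 69 of 1080 values lost the call. Among the 9 genes, ACAA2 had the fewest counts (19 to 48 per library).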

Other observations

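Peroxisome biogenesis genes, the peroxins that build the organelle and import its enzymes, were all measurable and split evenly. Of 15 genes 10 were called, 5 higher and 5 lower, and the median over the list was -0.14 on the log2 scale. The share called was 66.7%, beside 44.7% of all tested genes. PEX5, the receptor that carries enzymes into the peroxisome, fell from 48.1 ± 1.52 to 36.9 ± 1.40 CPM (SD, n = 4 each, log2 fold change -0.38, edgeR adjusted p = 2.8e-07). PEX10 and PEX2, which belong to the ubiquitin ligase that recycles PEX5, fell by 0.44 and 0.29 (adjusted p = 5.8e-06 and 2.7e-05). PEX3, which places membrane proteins, rose by 0.40 (adjusted p = 3.2e-03). PEX3 was named after its values were seen.

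Genes starting within 1 Mb of each of the 9 genes were counted as a description, beside 44.7% called of all tested genes, 22.6% higher and 22.1% lower. ETFB fell in a stretch where 13 of 27 tested neighbours were called, 12 of them higher, and the median over the neighbours was 0.22 on the log2 scale. ACADVL fell in a stretch where 29 of 61 were called, 23 lower and 6 higher. Around CPT1A, 10 of 17 were called, 8 lower and 2 higher, and around CPT2, 8 of 18, 4 in each direction. Around ACADM, 3 of 4 tested neighbours were called, all lower. HADHA and HADHB each had 11 called neighbours of 19, 9 of them higher. Each of these counts includes the other gene of the pair, itself called higher. Around ACADS, 20 of 29 were called, 13 higher and 7 lower. Around ACAA2, 5 of 11 were called, with SMAD7 (0.58) and MBD1 (0.22) higher and DYM (-0.50), MYO5B (-0.11) and RPL17 (-0.49) lower.

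The genes with the profile most like ACAA2 over the 8 libraries, by root mean square difference of centred log2(CPM + 1) among 10703 genes of at least 5 CPM, were LRRC37A4P (0.0778), AC004943.2 (0.0915) and MECOM (0.0932). Their log2 fold changes were 0.66, 0.63 and 0.61, beside 0.91 for ACAA2. At the low CPM of ACAA2, the 1 added before the log shrinks its change in this measure. LRRC37A4P is a pseudogene of a family of near-identical copies, so its counts are uncertain. Those most like ACADS were ATG16L2 (0.0775), CFB (0.0811) and ELF3 (0.0875).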
